A study of Mus musculus with 12 samples.

Results

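In mesenchymal stem cells (MSCs) of mouse bone, 1547 stretches of the genome carried trimethylation of lysine 4 of histone H3 (H3K4me3) without acetylation of lysine 27 (H3K27ac), while an acetylated stretch lay within 1000 bp. They were 6.86% of the 22555 segments that the peak lists of both marks define together, and 10.6% of the 14600 H3K4me3 segments called at both oxygen levels. A segment was a member when it was in both H3K4me3 lists, was under 5000 bp wide, overlapped no H3K27ac peak and had an H3K27ac peak of either oxygen level within 1000 bp. These calls chose the members, so their lack of H3K27ac and its nearness are not results. They had been taken as promoters with acetylation beside them, but only 182 of 1547, or 11.8% (95% CI 10.3 to 13.5), held the start of a protein-coding gene. A start lay inside or within 1000 bp of 873 (56.4%), a count that includes the 182. Most of the others continued a stretch that held a start. Of 1401 members that directly touched a segment with both marks, only 56 (4%) touched a stretch of such segments without a protein-coding start. The share with a start inside was 25.7% when the lowest-scoring 25% of each list was left out, and 32.4% among members of at least 1000 bp. The members are therefore called H3K4me3-only segments here.

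H3K4me3 is deposited around active and poised transcription starts, largely at CpG-rich promoters, by the SET1 and MLL enzyme complexes. H3K27ac is written by the acetyltransferases p300 and CBP, which take the acetyl group from acetyl-CoA, and it marks active promoters and enhancers. At an active promoter both marks usually cover the nucleosomes on each side of the start, and enhancers typically carry H3K27ac with little H3K4me3. MSCs are stromal cells that can form bone, cartilage and fat.

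The study asked how oxygen acts on the chromatin of these cells. Wild-type C57BL/6N male mice, 3 to 5 months old, gave the CD45-/TER119-/CD140a+/Sca-1+ cells, sorted from bone and kept at 2% oxygen (hypoxia) or moved to 21% oxygen (normoxia). The 12 libraries were 6 groups of 2: H3K27ac, H3K4me3 and input chromatin at each oxygen level. Each mark and oxygen level has 1 peak list, pooled from both libraries of its group, so no value below has a replicate check.

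No peak list holds counts per library, so the depth is unknown. Hypoxia and normoxia gave 15203 and 14832 H3K27ac peaks, and 14606 and 14603 H3K4me3 peaks. Of 10 stromal markers, 9 carried H3K4me3 and 8 carried H3K27ac at a start in at least 1 list. Ly6a, which encodes the sorting antigen Sca-1, carried H3K27ac only. Of 8 blood markers 2 carried H3K4me3 and 0 carried H3K27ac, and of 5 endothelial markers 2 and 0. Shares are given with 95% Wilson intervals and differences with 95% Newcombe intervals, which cover counting error over segments only, and neighbouring segments are not independent.

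The promoters of 4 genes show the sequence at members that hold a start: Alpl and Klf15, with acetylation downstream, and Ltbp2 and Notch1, with acetylation upstream. Alpl encodes the alkaline phosphatase of bone-forming cells, Klf15 a transcription factor of fat cell formation, Ltbp2 a matrix protein of the latent TGF-beta binding family and Notch1 a receptor for signals between neighbouring cells. Each sequence runs 5′ to 3′ on the strand of the gene, from 250 bases before the RefSeq start to 50 after it (GRCm38.p6). Capitals mark GGGCGG (the GC box), CCAAT and GGAATG (a motif of TEAD factors) on either strand. The promoter of Alpl is at chr4:137796335-137796634, minus strand. That of Klf15 is at chr6:90462326-90462625, plus strand. Those of Ltbp2 and Notch1 are at chr12:84876442-84876741 and chr2:26503773-26504072, both on the minus strand.
Alpl: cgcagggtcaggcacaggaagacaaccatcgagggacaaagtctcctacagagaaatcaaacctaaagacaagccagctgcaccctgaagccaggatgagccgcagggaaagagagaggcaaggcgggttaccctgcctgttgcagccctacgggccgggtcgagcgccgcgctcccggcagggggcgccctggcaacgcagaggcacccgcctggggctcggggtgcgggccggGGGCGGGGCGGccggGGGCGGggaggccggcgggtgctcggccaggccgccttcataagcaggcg
Klf15: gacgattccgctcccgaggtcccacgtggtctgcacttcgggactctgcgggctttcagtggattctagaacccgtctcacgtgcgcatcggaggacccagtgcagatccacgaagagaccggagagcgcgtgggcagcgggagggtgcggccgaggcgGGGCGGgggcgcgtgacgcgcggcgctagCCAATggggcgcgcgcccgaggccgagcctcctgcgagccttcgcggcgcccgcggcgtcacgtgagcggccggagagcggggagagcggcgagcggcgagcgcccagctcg
Ltbp2: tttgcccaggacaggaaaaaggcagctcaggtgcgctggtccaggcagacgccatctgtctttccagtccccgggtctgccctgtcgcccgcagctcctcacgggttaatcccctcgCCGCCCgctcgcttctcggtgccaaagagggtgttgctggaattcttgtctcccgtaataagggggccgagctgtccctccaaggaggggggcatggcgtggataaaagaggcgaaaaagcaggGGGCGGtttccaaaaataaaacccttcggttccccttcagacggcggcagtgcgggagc
Notch1: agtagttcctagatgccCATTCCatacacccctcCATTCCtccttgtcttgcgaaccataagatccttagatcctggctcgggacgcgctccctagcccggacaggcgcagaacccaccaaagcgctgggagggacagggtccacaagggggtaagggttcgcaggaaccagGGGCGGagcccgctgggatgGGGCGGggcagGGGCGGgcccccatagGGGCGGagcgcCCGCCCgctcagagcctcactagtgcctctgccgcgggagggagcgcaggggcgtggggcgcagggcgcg
Their GC contents were 70% at Alpl, 73.3% at Klf15, 61% at Ltbp2 and 68.3% at Notch1, with 26, 47, 20 and 23 CpG sites. All 4 held a GC box, between 1 at Klf15 and 5 at Notch1.

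Most members, unlike those at these promoters, held no protein-coding start, and a sequence across a border of one is given as an example. It lies at Aco1, which encodes the cytosolic aconitase, an enzyme that converts citrate to isocitrate, and was chosen after its values were seen. The sequence runs along the plus strand of GRCm38.p6, with 150 bases inside the segment that carries both marks and then 150 bases of the H3K4me3-only segment. Capitals mark CpG sites. Its position is chr4:40144351-40144650.
Aco1: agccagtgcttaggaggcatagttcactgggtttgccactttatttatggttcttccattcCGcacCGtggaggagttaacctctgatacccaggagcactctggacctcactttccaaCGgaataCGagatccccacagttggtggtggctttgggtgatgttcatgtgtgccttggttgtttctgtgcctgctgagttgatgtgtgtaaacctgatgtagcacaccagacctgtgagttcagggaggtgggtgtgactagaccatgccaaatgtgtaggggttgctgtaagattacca
At Aco1 the acetylated side held 4 CpG sites and the H3K4me3-only side 0. In the printed bases, GC content was 51.3% on the acetylated side and 48.7% on the H3K4me3-only side. Over the full segments, GC content was 54.7% in the segment with both marks and 43.7% in the member.

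Members fell into an edge type and a separate type. Of 1547, 1401 (90.6%, 95% CI 89.0 to 91.9) directly touched a segment with both marks, so that H3K4me3 ran on without a gap while acetylation stopped. These are called edges. The other 146 members are called separate segments. They lay beside H3K27ac without H3K4me3, or with a gap to a segment with both marks, as 8 did. H3K27ac lay on 1 side only of 1533 members, and on both sides of 14. It touched 1521 of the members, with no gap.

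The limits of the rule fell in a thin part of the distribution. At a gap of exactly 1000 bp there were 13 segments, just inside the limit, and at 1500 bp, just outside it, there were 20. The widest members were 4500 bp, and 5 had that width. The width limit left out 2 segments: one of 6000 bp at chr3:38889501-38895500 with no gene start, and one of 5000 bp at chr11:97018001-97023000 that holds the start of Sp6, a transcription factor of tooth and limb development.

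Edges were narrow. In all, 1023 of 1401 edges (73%) were 500 bp wide, which is the step of the authors' peak calling and so the smallest width a segment can have. No separate segment was this narrow, and 9 of 5474 isolated H3K4me3-only segments were. Isolated segments are those under 5000 bp with no H3K27ac within 1000 bp. The median width of edges was 500 bp (IQR 500 to 1000), that of separate segments 2500 bp (2000 to 3000) and that of isolated segments 2500 bp (2000 to 2500). Edges made up a median of 20% of the H3K4me3 domain they belonged to. All members together covered 3.49% of the bases under shared H3K4me3. The scores of members were low, given as a description: 1179 of 1547 (76.2%) were below 129, the median of the H3K4me3 lists, against 2857 of 5474 isolated segments. Without the lowest-scoring 25% of each list, the same rule gave 534 segments, of which 463 were among the 1547. Of the 1547, 524 members were at least 1000 bp wide.

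**Figure D1:**
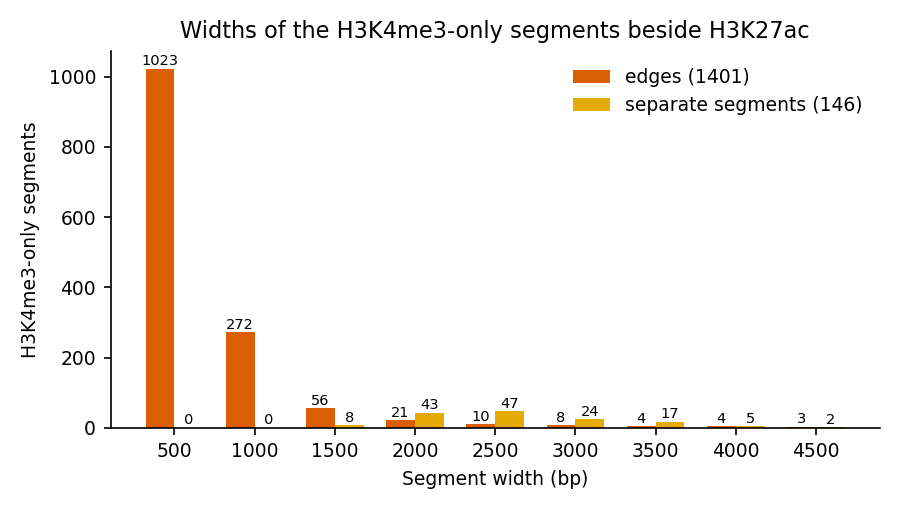
Number of H3K4me3-only segments beside H3K27ac (vertical axis) by segment width in bp (horizontal axis), for the 1401 edges and the 146 separate segments. Of the edges 1023 have the smallest possible width of 500 bp, and no separate segment does; the numbers above the bars are counts.

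Gene starts separated the types. A protein-coding start lay inside 59 of 1401 edges (4.21%, 95% CI 3.28 to 5.39) and inside 123 of 146 separate segments (84.2%, 77.5 to 89.3). Isolated segments held a start in 83.9% (82.9 to 84.8) of cases and segments with both marks under 5000 bp in 92.9% (92.3 to 93.5). Separate segments and isolated segments differed by 0.377 percentage points (-6.47 to 5.50), which is within counting error. The difference of all members from isolated segments was -72.1 points (-73.9 to -70.1), and the share was lower on 20 of 20 chromosomes. Most members are edges, parts of a domain with a median width of 500 bp, against 2500 bp for isolated segments. Width was not matched, so this difference follows in part from how members are defined. A start lay inside or within 1000 bp of 873 of the 1547 members (56.4%, 54.0 to 58.9). When starts of genes of every type were counted, 209 members (13.5%) held one.

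Base composition followed the same division, again without matching for width. The median GC content of edges was 43.4% (IQR 39.4 to 47.4), that of separate segments 53.7% (49.97 to 56.7) and that of isolated segments 53.5% (49.5 to 57.4). A sequence was called CpG island-like when it had at least 50% GC and an observed to expected CpG ratio of at least 0.6. This held for 24 of 1401 edges (1.71%, 95% CI 1.15 to 2.54) and for 23 of 146 separate segments (15.8%, 10.7 to 22.5). The share was 29.4% in isolated segments, and that of separate segments differed from it by -13.7 points (-18.8 to -6.78). Their share was the lower one on 16 of 18 chromosomes with separate segments. The median GC contents of separate and isolated segments were close, while the median CpG ratios were 0.473 and 0.545. Soft-masked repeats covered a median of 18% of an edge and 12.9% of a separate segment.

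The edges were then placed with respect to the gene. Touching segments with both marks were joined into 7436 acetylated cores, of which 6017 held protein-coding starts on 1 strand. At the downstream end of these, H3K4me3 ran on beyond the acetylation in 719 cores (11.9%, 95% CI 11.1 to 12.8), and at the upstream end in 328 (5.45%, 4.90 to 6.05). The difference was 6.50 percentage points (5.50 to 7.50), and the downstream share was higher on 20 of 20 chromosomes. Of the 719 downstream stretches, 718 were members. Where H3K4me3 ran on at a single end, that end was the downstream one in 672 of 953 cores (70.5%, 67.5 to 73.3). The share was 69.5% for genes on the plus strand and 71.5% for genes on the minus strand, and 71.9% for cores whose starts were at a single position. H3K27ac running on beyond H3K4me3 was less one-sided, with 17.2% of downstream and 15.1% of upstream ends.

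**Figure D2:**
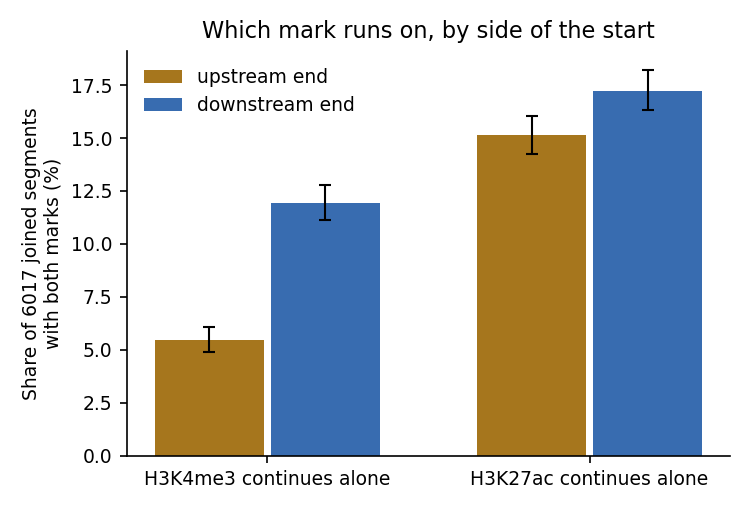
Share of the 6017 joined segments with both marks (vertical axis, in %) at whose upstream or downstream end H3K4me3 or H3K27ac continued alone; bars are shares and lines 95% Wilson intervals. H3K4me3 continued alone at 11.9% of downstream and 5.45% of upstream ends, and H3K27ac at 17.2% and 15.1%.

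Acetylation stopped closer to the start where an edge followed. Downstream, the median distance from the start to the end of acetylation was 1124 bp (IQR 908 to 1352) in the 719 cores with an edge and 1702 bp (1392 to 2115) in the 4261 cores where both marks ended together. The outer end of H3K4me3 lay at medians of 1721 bp and 1702 bp in the same cores. Upstream, acetylation reached 674 bp in the 328 cores with an edge and 1082 bp in 4779 cores without, and H3K4me3 reached 1242 bp and 1082 bp. By these medians H3K4me3 reached as far or farther in cores with an edge, and acetylation less far. These medians carry no test, because the ends of the marks define an edge.

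The part of the gene under an edge differed by side. Of the bases of the 718 downstream edges, 88.8% were in introns, 10.2% in exons and 1.02% outside genes. Of the bases of the 328 upstream edges, 76.1% were outside genes. A further 299 edges touched cores with starts on both strands, and 56 touched cores with no protein-coding start. Cores with starts on both strands had an edge in 267 of 902 cases (29.6%, 95% CI 26.7 to 32.7), and cores with starts on 1 strand in 1000 of 6017 (16.6%, 15.7 to 17.6). The difference was 12.98 points (9.94 to 16.2). Both ends of a core on both strands are downstream of a start.

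GC content fell across the border between core and edge. In the last 500 bp of acetylated sequence the median was 48.2%, and in the next 500 bp, where the edge began, it was 43.4%. It was lower on the outer side at 1030 of 1401 borders (73.5%, 95% CI 71.2 to 75.8). Where both marks ended together, it was 43.8% inside and 43.6% outside, and lower outside at 5634 of 11121 ends (50.7%, 49.7 to 51.6). The median number of CpG sites went from 13 to 6 across borders with an edge, and from 6 to 4 where both marks ended together. The fall was present on both sides of the gene: 47.2% to 43% downstream and 51% to 44% upstream. The GC-rich sequence thus lay closer to the end of acetylation where H3K4me3 continued. Borders with an edge also lay nearer the start, at medians of 1124 bp against 1702 bp downstream and 674 bp against 1082 bp upstream. Distance from the start was not matched, and the ends of the marks define an edge. The contrast with ends shared by both marks is therefore a description.

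**Figure D3:**
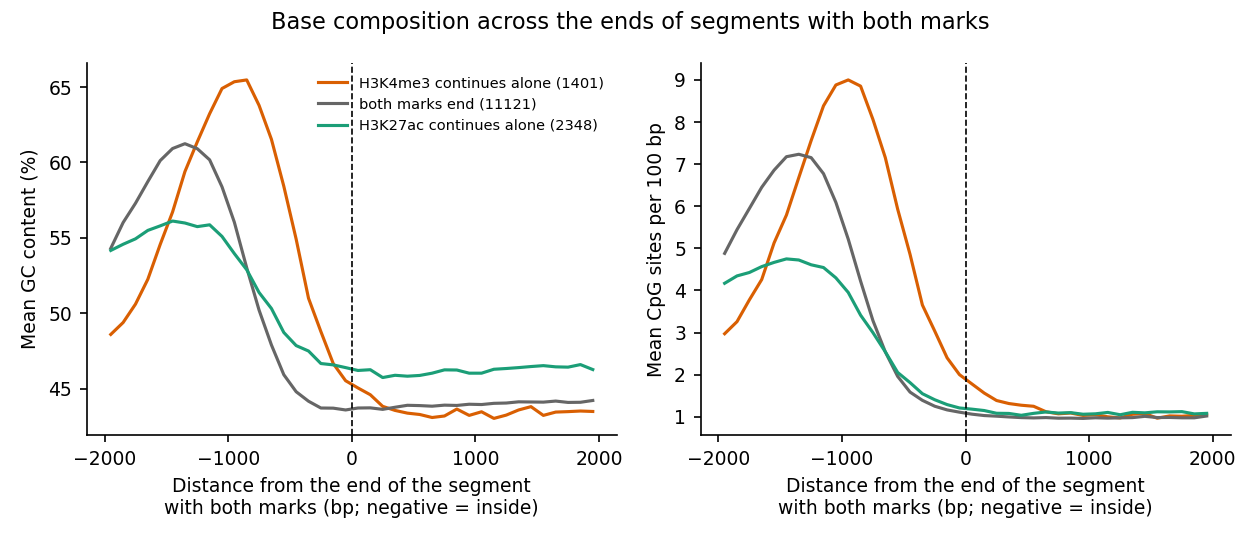
Mean GC content in % (left) and mean CpG sites per 100 bp (right) in 100 bp bins by distance in bp from the end of the joined segments with both marks, negative inside, for 1401 ends where H3K4me3 continued alone, 11121 where both marks ended and 2348 where H3K27ac continued alone. The GC-rich part lies closest to the end where H3K4me3 continued alone.

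The acetylation beside edges was also called with lower scores, given as a description since the same calls define the edge. In hypoxia, 571 of 1312 segments with both marks that were continued by an edge (43.5%) scored below 111, the median of the H3K27ac list, against 1507 of 6140 others (24.5%). In normoxia the shares were 46.2% and 27.9% below the median of 102. The part of the score in the results on edges was not tested.

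Members that held a start showed where acetylation lay when it was not on that start. Some of their genes, such as Axin2, Klf15 and Bmf, had another start inside an acetylated segment. Of the 182 members with a start, 172 held starts on 1 strand. H3K27ac lay downstream only in 91 of 172 (52.9%, 95% CI 45.5 to 60.2), upstream only in 76 (44.2%, 37.0 to 51.6) and on both sides in 5. The interval of the downstream share held 50%, the value at which neither side is favoured. With only the 5′ end of each gene as its start, the share was 92 of 146 (63%, 54.9 to 70.4), whose interval does not hold it, so the call depends on which starts are counted. The downstream share differed with the kind of neighbour. Beside H3K27ac without H3K4me3 the downstream share was 66 of 103 (64.1%, 54.5 to 72.7), and beside segments with both marks it was 25 of 64 (39.1%, 28.1 to 51.3). The difference was 25.02 points (9.44 to 39.0). Around 506 isolated segments with H3K27ac within 10000 bp, the nearest acetylation was downstream in 39.5% (35.4 to 43.8).

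Among osteogenic regulators and matrix genes, 2 of 28 with H3K4me3 at a start had that start in a member (7.14%, 95% CI 1.98 to 22.7). The share was 1.49% of all genes with H3K4me3 at a start. It was not particular to bone, with 2 of 34 histone acetylation genes (5.88%), 1 of 18 factors of other lineages and 1 of 19 adipogenic genes. Of mesenchymal identity, chondrogenic and extracellular matrix genes, 0 of 39, 0 of 15 and 0 of 64 had a start in a member. Sp7 encodes osterix, the transcription factor required for osteoblast formation. Its member at chr15:102364501-102367500 held both annotated starts, scored 1000 in both H3K4me3 lists and was followed downstream by 10000 bp of H3K27ac, scored 139 in hypoxia and 111 in normoxia. At Alpl the member at chr4:137795001-137797000 held the only start, and the acetylation downstream was 2500 bp wide and called in hypoxia alone, with a score of 53. Creb3l1, an endoplasmic reticulum stress transducer of osteoblasts in the osteogenic list, had a 500 bp edge upstream of an acetylated start.

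Of 60 Wnt pathway genes with H3K4me3, 3 had a start in a member (5%, 95% CI 1.72 to 13.7), against the same 1.49%. Lrp5, the Wnt co-receptor whose loss lowers bone mass, had a 3000 bp member with both of its starts and 4500 bp of H3K27ac downstream, scored 72 at both oxygen levels. Axin2, a feedback inhibitor of the pathway, had 1 of 2 starts in a member of 1000 bp and the other in the acetylated segment upstream. Rspo3, a secreted enhancer of Wnt signalling, had a 1500 bp member with a 2500 bp acetylated segment downstream that scored 93 in hypoxia and 53 in normoxia. A further 6 of the 60 (10%) had an edge at an acetylated start, near the 12.0% of all genes, among them Sfrp1, Sfrp2, Rspo2 and Ror1.

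Other named genes spread over the pathways. Klf15 had 2 of its 4 starts in a 3000 bp member and another in the 2500 bp H3K27ac segment downstream. Notch1 had a 3500 bp member with 4500 bp of H3K27ac upstream of the start, scored 1000 in hypoxia and 98 in normoxia. Adm, the hypoxia-induced peptide adrenomedullin, had a 1500 bp member touching 4000 bp with both marks that scored 1000 in hypoxia and 109 in normoxia. No score lies between 160 and 1000, so such pairs give no size of a difference. H3K27ac scores were also higher in hypoxia over the whole lists, with medians of 111 and 102. In those lists 3379 peaks in hypoxia and 2802 in normoxia scored 1000. Kat2a, which encodes the acetyltransferase GCN5, had a 2000 bp member with a score of 1000 and, across a gap of 500 bp, 22000 bp of H3K27ac upstream. Hdac3, a histone deacetylase, shared a 3000 bp member with Rell2. Ndufb7, a subunit of respiratory complex I, lay beside 12000 bp of acetylation in which Tecr starts. Sf3a3, a splicing factor, had 8500 bp upstream, and Hoxd11, a limb patterning gene, had 6500 bp downstream of a 4500 bp member.

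**Figure D4:**
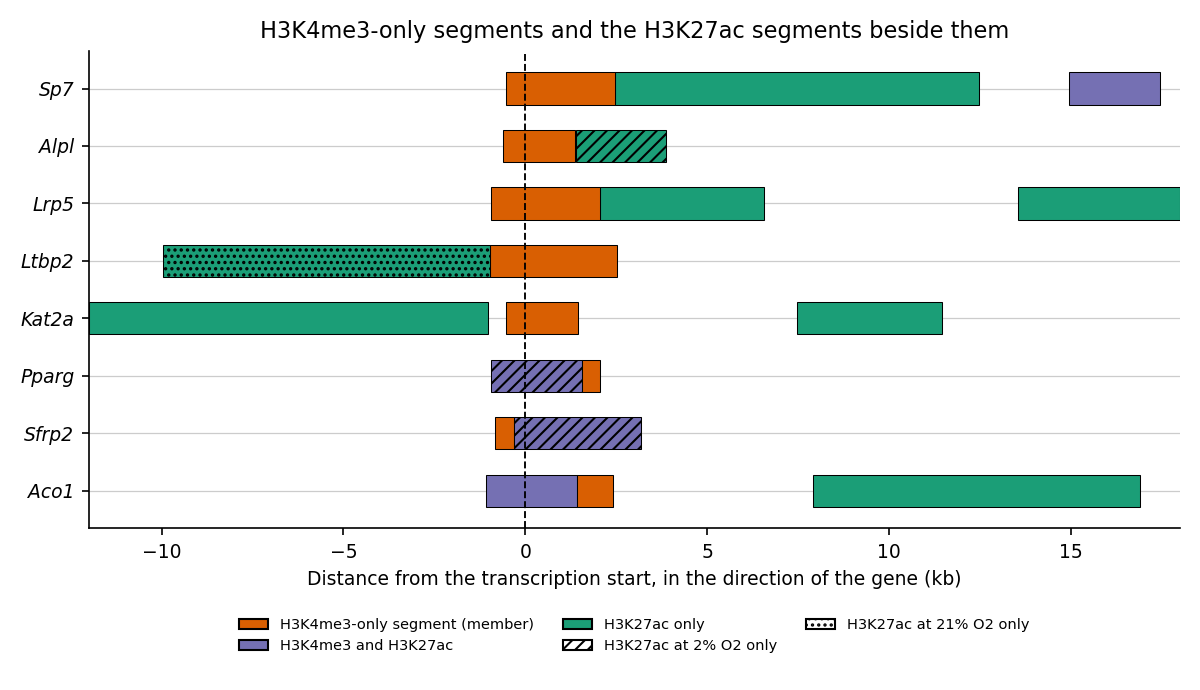
Segments around the start of 8 genes, with distance from the start in kb along the direction of the gene (horizontal axis); colours give the marks and hatching marks H3K27ac called at a single oxygen level. Sp7, Alpl, Lrp5, Ltbp2 and Kat2a have the start in an H3K4me3-only segment, while Pparg, Sfrp2 and Aco1 have it in a segment with both marks and the H3K4me3-only segment at its edge; segments that pass the limits of the axis are clipped.

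The widest acetylated neighbours of start-holding members lay at mixed genes. Mterf4, a factor of mitochondrial ribosome assembly, had 65000 bp of H3K27ac downstream of its start, mostly past the end of the gene. Pcdhgc4, a clustered protocadherin, was next with 41000 bp. Adssl1, the muscle-type adenylosuccinate synthase, had acetylation on both sides, the wider one 27500 bp. Osbpl5, Rai1 and Lpcat2 had 26500, 26000 and 25000 bp. Gsn, the actin-severing protein gelsolin, and Kat2a had 22000 bp each. The pair 4930455H04Rik and Palmd, starting from a shared member, had 21500 bp, and Sema3b, a secreted semaphorin, had 21000 bp. Over all 143 H3K27ac-only neighbours of separate segments, the median width was 6500 bp (IQR 4500 to 10500), against 5500 bp (3500 to 9500) for all 7946 H3K27ac-only segments.

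Oxygen was compared through the acetylated neighbours, since the rule required H3K4me3 at both levels. Over all 15421 H3K27ac segments, 5.23% were called at a single oxygen level, 3.82% in hypoxia only and 1.41% in normoxia only. For H3K4me3 the share was 0.0616%. Of the 1547 members, 69 (4.46%, 95% CI 3.54 to 5.61) had such a neighbour: 55 a hypoxia-only and 14 a normoxia-only segment. The share was near that of all H3K27ac segments. Since each library comes from many cells, a mark present in fewer cells and less of it per cell cannot be told apart. Of all 7475 H3K27ac segments that also carried H3K4me3, 2.66% were called at a single level, 2.35% in hypoxia only and 0.308% in normoxia only. Of those that were neighbours of members, 56 of 1331 (4.21%, 3.25 to 5.42) were called at a single level, against 143 of 6144 other such segments (2.33%, 1.98 to 2.74). The difference was 1.88 points (0.843 to 3.15). Segments called at a single level were nearly all of low score, as were many neighbours. Among those under the median of the higher score, 132, the shares were 6.66% of 826 and 4.84% of 2854, a difference of 1.82 points (0.0930 to 3.87). Among those at or above it, 1 of 505 and 5 of 3290 were called at a single level. Of all 7946 H3K27ac segments without H3K4me3, 7.65% were called at a single level, 5.2% in hypoxia only and 2.45% in normoxia only. Of those beside members, 11 of 150 were (7.33%, 4.14 to 12.6), a difference from the others of -0.324 points (-3.57 to 5.03).

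Single-level acetylation beside an edge was mostly a whole acetylated core. Of the 58 edges touching it, 39 bordered a hypoxia-only segment with nothing touching on its far side, so that in normoxia the whole H3K4me3 domain was called without acetylation. In 3 cases with hypoxia and 2 with normoxia, the single-level segment led on to a stable segment with both marks, so that the border of acetylation moved along the domain. The score of each of the 14600 shared H3K4me3 segments, members included, was equal in both lists, so this score could not show a difference between oxygen levels.

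Hypoxia-only cores with an edge were few in the gene lists, counted here among the genes with an edge. These were 2 of 6 genes in the Wnt list, 1 of 3 adipogenic, 1 of 2 Hox and 1 of 5 glycolysis genes. The respiratory chain list had 1 of 16 and the niche factor list 1 of 1. The mesenchymal identity, osteogenic and chondrogenic lists had 0 of 4, 0 of 2 and 0 of 1. Over all edges, 49 of 1401 (3.5%) had a hypoxia-only neighbour. The lists hold too few such genes to be compared, so a count of 0 shows no contrast between lineages. Pparg, the central regulator of fat cell formation, had a 2500 bp hypoxia-only core with a score of 101 and a 500 bp edge downstream. Sfrp2, a secreted Wnt modulator, had a 3500 bp core with a score of 102 and a 500 bp edge upstream that scored 1000 for H3K4me3. Rspo2, a Wnt enhancer, had a 4000 bp core with a score of 101 and an edge of 2000 bp. Pfkp, a glycolytic phosphofructokinase, Ndufc1, a subunit of complex I, Ptges, a prostaglandin E synthase, and Hoxa4 had hypoxia-only cores with scores of 68, 74, 50 and 59. Snrpc, a subunit of the U1 splicing particle, had a normoxia-only core with a score of 53. These genes were chosen from the gene lists after their values were seen.

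Of the 182 start-holding members, 9 (4.95%, 95% CI 2.62 to 9.13) had a hypoxia-only and 5 (2.75%, 1.18 to 6.27) a normoxia-only neighbour. Over all H3K27ac segments 3.82% and 1.41% were so called, and each lies within the interval of the members. Dus1l, a tRNA modifying enzyme, led with a hypoxia-only segment of 4500 bp and a score of 106. Bmf, a pro-apoptotic BCL2 family gene, followed with 19500 bp and a score of 70. Kif21b, Clpb, Gata2, Dlx1, Ddah2, Dlg2 and Alpl had scores from 53 to 69, near the lowest score of 50 in each list. Gata2, a factor of blood and endothelial lineages, had 1 of 2 starts in a member of 1000 bp and 7000 bp of hypoxia-only segment with both marks downstream. At Ltbp2 a member of 3500 bp held all 3 starts, and 9000 bp of normoxia-only H3K27ac lay upstream with a score of 62. Cdh13, Smyd5, Gprc5a and Psrc1 had normoxia-only neighbours with scores from 51 to 54. Each of the normoxia-only scores was thus in the low part of its list, whose median was 102.

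Over the 23 gene lists, members were read against all protein-coding genes. Of 12790 genes with H3K4me3 at a start, 191 (1.49%, 95% CI 1.30 to 1.72) had a start in a member, and 1532 (12.0%, 11.4 to 12.5) had a start in an acetylated core with an edge and none in a member. Of 22 genes of citrate export and acetyl-CoA supply, 9 had an edge (40.9%, 23.3 to 61.3), among them Aco1, Crat, Idh1, Idh2, Mpc1, Mpc2, Pdhb and Pdp1. The edge was downstream of the start at 7 of them. Mpc1 and Mpc2 form the mitochondrial pyruvate carrier, Pdhb is a subunit of pyruvate dehydrogenase and Pdp1 its activating phosphatase, Idh1 and Idh2 are isocitrate dehydrogenases, and Crat transfers acetyl groups to carnitine. Their edges were mostly 500 bp wide, 6 of 9, and 8 of 9 scored below the list median. All 9 cores were called at both oxygen levels.

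Of 75 nuclear genes of the respiratory chain, 16 had an edge (21.3%, 95% CI 13.6 to 31.9), and at 13 of them it was downstream of the start. They included Sdha, Sdhb, Sdhc and Sdhd, the subunits of succinate dehydrogenase, with edges of 500, 3500, 500 and 1000 bp, and Cycs, which encodes cytochrome c. Of 36 histone and DNA methylation enzymes, 9 had an edge (25%, 13.7 to 41.1). Among these were Kmt2a and Setd1b, which write methylation on this lysine, their cofactor Wdr5, and Kdm5a and Kdm5c, which remove it. Of 57 proteasome and spliceosome genes, 11 had an edge (19.3%, 11.1 to 31.3).

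Other lists had lower shares. Of 51 cytoskeleton and YAP/TEAD genes, 1 had an edge (1.961%, 95% CI 0.347 to 10.3), the collagen receptor subunit Itga11, and 48 had both marks at a start without one. Of 64 extracellular matrix genes, 3 had an edge (4.69%, 1.61 to 12.9): Col6a2, Lamb2 and Vcan. Of 78 ribosomal protein genes, 9 had an edge (11.5%, 6.19 to 20.5), near the 12.0% of all genes. However, only 1 of the 78 had its start in an isolated segment, without acetylation, against 4664 of the 12790 genes. An edge needs acetylation at the start, so these shares are not of like sets. Shares depend on how many genes of a list carry acetylation at all. Several genes share a core with a neighbour on the other strand, such as Idh1 with Pikfyve and Mpc2 with Dcaf6, so that genes of a list are not independent of others. The lists were chosen with earlier results known, and these shares are descriptions.

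**Figure D5:**
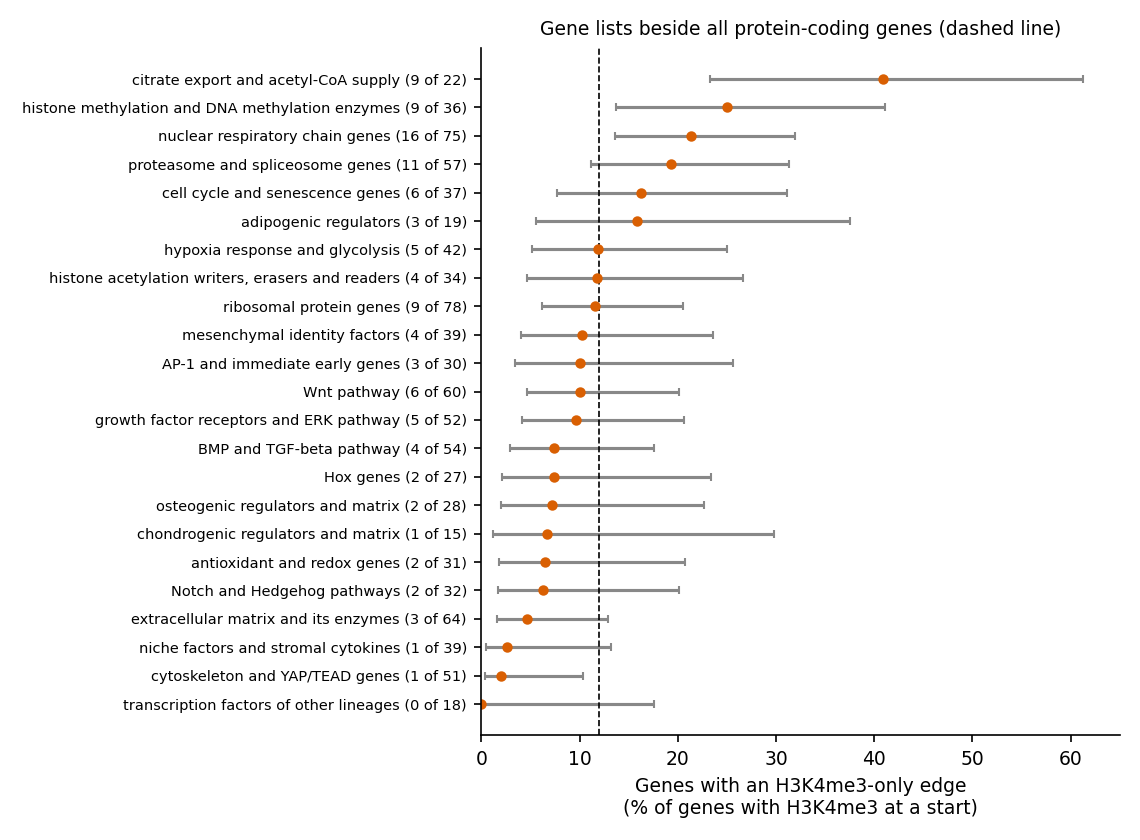
Share of genes with an H3K4me3-only edge at an acetylated start (horizontal axis, in % of the genes with H3K4me3 at a start) in each of 23 gene lists, as points with 95% Wilson intervals; the dashed line is the share of all protein-coding genes, 12.0%. Citrate export and acetyl-CoA supply lies highest, with 9 of 22 genes, and transcription factors of other lineages lowest, with 0 of 18. Of those 18, 15 had their start in an isolated segment, without acetylation.

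Promoter sequences of genes starting in members were searched on both strands for 7 motifs in the 300 bases around the RefSeq start. The table of RefSeq promoters held 145 promoters of 134 genes at members. TATAAA, the core of the TATA box, was in 3 of 145 member promoters (2.07%, 95% CI 0.706 to 5.91), in 6.22% of promoters at isolated segments and in 12.1% of all 20150 promoters. The difference from isolated segments was -4.15 points (-5.73 to -0.253). CCGGAA, a motif bound by ETS factors, was in 26 of 145 (17.9%, 12.5 to 24.98), in 34% at segments with both marks and in 19.2% of all promoters. The difference from segments with both marks was -16.1 points (-21.6 to -8.93). GGGCGG was in 65.5% of member promoters, 67.4% at isolated segments, 71.7% at segments with both marks and 47.8% of all. CCAAT was in 42.8%, 37%, 37.2% and 37.8%. For TGACTCA (AP-1), TGTGGT (RUNX) and GGAATG (TEAD) the member shares were 2.07%, 12.4% and 11.7%, against 4.65%, 14.7% and 13.4% of all promoters. These motifs differed from neither comparison beyond counting error. The 2 differences given were those of 14 whose interval left out 0, with no adjustment for their number.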

How the data were processed

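ChIP-seq libraries of H3K27ac, H3K4me3 and input were made from mouse MSCs at 2% and 21% oxygen. The authors aligned reads to mm10 with bowtie2 and took out duplicates using Picard. Peaks came from chromstaR, run in its differential mode with bins of 1000 bp, steps of 500 bp and a mapping quality of at least 15. Tool versions are not given in the sources used here. The authors deposited 4 peak lists with a score per peak. Scores ran from 50 to 160, and all higher ones were 1000. What the score measures is not given, and it was used only to describe and filter.

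The lists were joined into 22555 segments and the rule was applied to them. Starts came from the GENCODE M21 basic annotation, bases from RefSeq GRCm38.p6, which has the mm10 coordinates. Python 3.11.15, numpy 2.4.6 and pandas 2.3.3 were used. The choice of segments and the intervals were tested on simulated data. The 4 lists hold no values per library, so no test over samples, no p-value and no depth can be given. The members, the gene lists and the comparisons were chosen with earlier results of these data known. The split into edges and separate segments, the analysis of cores and the split by score were added after the segments had been seen.

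Genes named were those with a start in a member: up to 4 per list with the widest H3K27ac segment within 1000 bp, the 10 with the widest over all members, and the 10 hypoxia-only and 10 normoxia-only by the highest score of that segment. Fewer than 10 were found at each oxygen level. Promoters shown were at most 2 per side of acetylation, in list order. Genes with an edge only were named after their values were seen. All 1020 symbols of the lists matched the annotation. Sp7 was not in the promoter table.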

Additional observations from a re-analysis of the deposited data

How the results depend on the processing

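No paired analysis was possible because each list pools both libraries of its group and carries no replicate numbers, and for the same reason no library could be left out. Of 61 values under alternatives, 43 stayed within the 95% interval of the value given above (for the count of members, within 1.5 times) and 18 moved. Leaving out the lowest-scoring 25% of each list gave 534 members, of which 25.7% held a protein-coding start, 76.59% were edges, 12.7% had a neighbour called at a single oxygen level and 6.55% were CpG island-like, with a median GC content of 46.2%. Removing a low-scoring peak from 1 of the lists of H3K27ac also makes the same segment of the other list count as called at a single level. Members of at least 1000 bp, an alternative chosen after seeing the data, numbered 524, with a start in 32.4%, edges in 72.1%, CpG island-like sequence in 8.21% and a median GC content of 49.1%. The share with a start was 15.2% with a gap of up to 2500 bp, 13.5% with starts of all gene types, 10.1% with only the 5′ end of each gene and 56.4% with a start within 1000 bp. The share of edges was 92.1% with touching H3K27ac only and 86.2% with a gap of up to 2500 bp. The share with acetylation downstream only was 63% with only the 5′ end of each gene, against 52.9%, and its interval then no longer held 50%. Most edges have the smallest width the calls allow (1023 of 1401), so the end of acetylation is known at best to the 500 bp step. These edges are also narrower than the bins of 1000 bp used for the calls.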

Other observations

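The separate segments without a protein-coding start were few, 23 of 146. They resembled the others in base composition, with a median GC content of 54.6% (IQR 49.95 to 56.1) against 53.4% (49.98 to 56.9) in the 123 with a start, and in width, with medians of 2000 bp and 2500 bp. The 59 edges that held a start were wider and richer in GC than edges in general, with medians of 1500 bp and 51.6%.

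Edges were spread over the genome. They and the separate segments together made up between 7.62% of H3K4me3 segments on chromosome X and 13.1% on chromosome 9, and chromosome Y held 0 members among 4 H3K4me3 segments. Of the H3K27ac segments within 1000 bp of a member, 85 had a member on each side. Cores with an edge at both ends numbered 82, and cores with an edge at 1 end and H3K27ac running on alone at the other numbered 120.

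Across the borders of edges, CCGGAA was in 13.8% of the 500 bp windows on the acetylated side (95% CI 12.1 to 15.7) and in 7.35% on the edge side (6.10 to 8.84). Where both marks ended together, the shares were 6.78% and 5.21%. TGACTCA was in 5.28% (4.23 to 6.58) and 6.50% (5.32 to 7.91) of windows at borders of edges, against 10.7% (9.54 to 12.1) and 9.62% (8.50 to 10.9) where H3K27ac ran on alone. Distance from the start was not matched in these comparisons.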
